A study of Mus musculus with 9 samples.

Results

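The small RNA genes described here were the microRNA and small nucleolar RNA (snoRNA) genes detected by RNA-seq in RAW264.7, a macrophage cell line of the mouse. A gene was included when its GENCODE M21 symbol began with Mir, Snora or Snord followed by a number and when its mean over all 9 libraries was at least 0.5 FPKM (fragments scaled to exon length and library size). This left 141 of the 28137 genes in the deposited values, out of 326 such symbols that were listed at any level and 1320 in the annotation. They comprised 94 microRNA genes, 32 box C/D snoRNA genes, 11 box H/ACA snoRNA genes and 4 long host transcripts (Mir155hg, Mir142hg, Mir22hg and Mir17hg). The 137 short genes were 54 to 238 bases long. The 4 host transcripts had 269 to 3536 bases of exon, so that the description of these genes as very short does not hold for them. The level that chose the genes is used as a description. Just inside the limit were Mir6403 at 0.506 FPKM and Mir133a-1 at 0.511 FPKM, and just outside were Mir684-1 at 0.498 FPKM and Mir6399 at 0.488 FPKM.

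Groups of 3 libraries were compared, named NC siRNA (control), SFRP2 siRNA and RAB6A siRNA by their labels. Per the labels, cells received 60 nM siRNA with a Lipofectamine reagent in DMEM for 6 hours, lipopolysaccharide at 100 ng/ml was added to all groups after 12 hours in complete medium, and RNA was extracted after 24 hours of polarization. The paper's methods name other conditions for this cell line, including a second stimulus (interferon-γ), and it is not stated whether the 3 SFRP2 siRNA libraries received different siRNAs or a mixture. The labels do not say that replicates came from separate cultures, so that p-values measure the spread between these libraries, which may be technical.

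MicroRNAs are made from hairpins that Drosha and Dgcr8 cut out of longer transcripts in the nucleus and that Dicer1 trims to a mature strand, which an Argonaute protein carries to target mRNAs through its seed. Many hairpins lie in introns or exons of a host gene. Most mammalian snoRNAs are released from introns of host genes as well. Box C/D snoRNAs guide 2′-O-methylation and box H/ACA snoRNAs guide pseudouridylation of ribosomal and spliceosomal RNA, each within a particle of core proteins. Mature microRNAs and most snoRNAs carry no poly(A) tail and are shorter than the fragments of an mRNA library. The libraries were made with an mRNA kit. A read counted at such a gene may therefore come from the mature RNA, its precursor or the unspliced host transcript, and these cannot be told apart here.

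The mature microRNA sequences that identify the genes on which the results turn are given from RefSeq (GRCm38.p6), with the seed (bases 2 to 8) in capitals. The set holds the highest microRNA gene, the largest rise and falls, and known macrophage microRNAs. A mature sequence was found for 85 of the 94 microRNA genes. Mir221 and Mir222 share a seed, and it was one of only 3 seeds held by more than 1 of these genes.
mmu-miR-5125: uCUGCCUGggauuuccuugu
mmu-miR-7a-5p: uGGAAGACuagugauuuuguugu
mmu-miR-1938: cGGUGGGAcuuguaguucgguc
mmu-miR-199a-5p: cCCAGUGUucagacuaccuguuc
mmu-miR-199a-3p: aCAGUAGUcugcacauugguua
mmu-miR-365-3p: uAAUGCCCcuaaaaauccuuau
mmu-miR-29a-3p: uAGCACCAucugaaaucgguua
mmu-miR-146a-5p: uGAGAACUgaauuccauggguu
mmu-miR-221-3p: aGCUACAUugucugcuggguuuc
mmu-miR-222-3p: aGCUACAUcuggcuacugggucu

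The ends of 3 snoRNAs are shown for the boxes by which these classes are known, from GENCODE M21 transcripts on GRCm38. Box C (TGATGA) was searched in the first 20 bases, box D (CTGA) in the last 15 and the ACA of H/ACA snoRNAs in the last 6, on the strand of the transcript only, and capitals mark a match. The lines give the first or the last 25 bases.
Snord98 first: gagttatgatgtgtaaatcctattc
Snord98 last: gtgtggaacataatgaaCTGAactc
Snora31 last: tcagattgaattagggagtACAtct
Snora62 last: tttgatagtaacctttgctACAaaa

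TGATGA was present in that window in 22 of the 32 detected box C/D genes (68.8%) and in 70 of the 99 annotated ones (70.7%). CTGA was present in 28 of 32 (87.5%) and in 92 of 99 (92.9%). ACA was present in 10 of 11 detected box H/ACA genes (90.9%) and in 39 of 42 annotated ones (92.9%), against 5.05% of the annotated box C/D genes. Snord98 and Snord71 had CTGA but not TGATGA in these windows.

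The libraries held 32758729 to 47149256 reads, recovered from the steps in the FPKM values. The 8 macrophage markers summed to between 3945 and 4982 FPKM per library, whereas 3 or fewer listed markers each of T cells, B cells, fibroblasts, epithelium and endothelium summed to at most 2.04 FPKM. The sum hides differences between single markers. Against NC siRNA, Lyz2, Csf1r and Spi1 were lower with RAB6A siRNA (log2 fold change -2.03, -1.44 and -1.05, limma adjusted p = 1.89e-06, 7.77e-06 and 2.04e-05). The other markers differed by -0.14 (Cd68) to 0.21 (Cd14). Sfrp2 had 2 to 4 reads in every library, at 0.0197 to 0.0567 FPKM, and was too low to be tested. Rab6a had 24.3, 27.3 and 25.5 FPKM with NC siRNA, 26.6, 28.6 and 25.8 with SFRP2 siRNA and 21.2, 20.7 and 20.4 with RAB6A siRNA. The RAB6A siRNA group lay below the others (log2 fold change against NC -0.31 ± 0.06 SE, limma adjusted p = 0.00240, below the fold that was called).

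The depth at the small RNA genes was low. For a gene of 80 bases, 1 read corresponded to 0.265 to 0.382 FPKM and 3 reads to 0.795 to 1.14 FPKM. Only 44 of the 141 genes had a mean of at least 10 reads per library and 70 had fewer than 5. The 8 short genes with a mean of at least 50 reads in the RAB6A siRNA and NC siRNA libraries had a median standard error of 0.16 on the log2 scale, against 0.79 for the 61 genes below 5 reads. All intervals from reads given here cover counting error only. A few genes shared a run of at least 50 bases with another gene and are uncertain (Snora41, Snora30, Snora21, Snora57, Snord58b and Mir8099-2).

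Where a small RNA gene lay in the genome went together with whether it was listed at all. Of 625 annotated short genes inside an intron on the same strand, 231 (37.0%) were listed, as were 28 of 76 (36.8%) in an intron on the opposite strand. Of 241 that overlapped no other gene, 34 (14.1%) were listed, and of 39 opposite to an exon, 1 (2.56%). Of 329 that overlapped an exon of another gene on the same strand, 25 (7.60%) were listed. Well-known macrophage microRNAs were among the unlisted. Of 52 microRNA genes in a list of macrophage microRNAs, 29 overlapped such an exon, and 27 of these 29 were not listed, among them Mir155 in Mir155hg, Mir21a in Vmp1, Mir223 in F630028O10Rik, Mir22 in Mir22hg and the 6 hairpins of the Mir17 cluster in Mir17hg. Of the other 23, 14 were listed. The setting for reads that overlap several genes was not given in the sources used here, and a missing value at these genes is not a measurement of their RNA.

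The detected genes therefore lay mainly in introns. Of the 137 short genes, 103 were inside an intron on the same strand, 13 inside an intron on the opposite strand, 8 overlapped an exon and 13 overlapped no other gene. Levels spanned 0.506 to 168 FPKM among microRNA genes (median 1.36), 0.558 to 27.3 among box C/D genes (median 1.67) and 0.692 to 29.9 among box H/ACA genes (median 2.27), as means over 9 libraries.

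The highest of them was Mir5125, in an intron of Srrm2, which encodes a protein of nuclear speckles (chr17:23823291-23823369, + strand). It had 61.1, 64.4 and 75.3 FPKM with NC siRNA, 58.7, 61.2 and 65.2 with SFRP2 siRNA and 435, 342 and 350 with RAB6A siRNA. The 3 RAB6A siRNA libraries stood far above the other 6, which overlapped each other. The log2 fold change against NC was 2.48 ± 0.12 (SE, limma adjusted p = 2.59e-06). Srrm2 itself was at 74.8 ± 1.66 (SD, n = 3) FPKM with NC siRNA and 82.7 ± 7.81 with RAB6A siRNA, a log2 fold change of 0.14 (adjusted p = 0.131).

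Mir1957a, in an intron of the glucose transporter gene Slc2a1 (chr4:119129779-119129844), showed the same order. Its values were 17.8, 17.7 and 20.3 FPKM with NC siRNA, 16.8, 18.7 and 15.7 with SFRP2 siRNA, and 102, 94.5 and 109 with RAB6A siRNA. It rose by 2.45 ± 0.08 on the log2 scale (adjusted p = 1.09e-06), the smallest adjusted p among the small RNA genes, whereas Slc2a1 differed by 0.71 (adjusted p = 1.65e-04). Mir7-1, one of the genes for miR-7a and held in an intron of Hnrnpk (chr13:58392779-58392886), had 18.7, 16.9 and 15.7 FPKM with NC siRNA and 38.7, 40.1 and 55.7 with RAB6A siRNA. With SFRP2 siRNA it had 23.3, 16.7 and 22.1 FPKM, which overlapped the NC group. Mir7-1 rose against NC by 1.37 ± 0.14 (adjusted p = 8.08e-05), while Hnrnpk was lower by a log2 fold change of -0.64 (adjusted p = 9.35e-05).

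Among snoRNA genes, Snora31, in an intron of Tpt1, had 5.36, 4.89 and 8.50 FPKM with NC siRNA, 10.8, 4.15 and 6.64 with SFRP2 siRNA and 34.5, 30.1 and 32.4 with RAB6A siRNA. Snord55, also inside an intron, had 6.69, 4.83 and 5.36 FPKM with NC siRNA, 2.50, 3.91 and 2.92 with SFRP2 siRNA and 28.6, 29.1 and 20.1 with RAB6A siRNA. Both rose with RAB6A siRNA, by 2.39 ± 0.19 and 2.18 ± 0.17 (adjusted p = 2.17e-05 and 1.99e-05). Tpt1 also differed, by 0.89, less than the log2 fold change of 1 that was called. Snora23, in an intron of Ipo7, had 19.3, 22.6 and 17.9 FPKM with NC siRNA and 36.04, 31.9 and 57.7 with RAB6A siRNA. Its rise of 1.02 ± 0.21 (adjusted p = 0.00297) sat at the limit, and it was no longer called without the third RAB6A siRNA library (0.77) or the third NC siRNA library (0.95).

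Snord104 and Snord17 (in an intron of Snx5) were the 2 snoRNA genes of highest level that were not called. Snord104 had 23.7, 15.2 and 24.9 FPKM with NC siRNA and 33.4, 35.9 and 40.6 with RAB6A siRNA (log2 fold change 0.81, adjusted p = 0.00477). Snord17 had 11.2, 9.89 and 9.39 FPKM with NC siRNA and 14.1, 16.7 and 13.2 with RAB6A siRNA (0.52, adjusted p = 0.00264). In both, the groups did not overlap and the difference was below the fold that was called. The host transcript Mir155hg, from which miR-155 is cut, was the second highest and differed least among the 10 highest. It had 151, 188 and 182 FPKM with NC siRNA, 146, 149 and 140 with SFRP2 siRNA and 169, 154 and 159 with RAB6A siRNA, and the RAB6A siRNA and NC groups overlapped (log2 fold change -0.11, adjusted p = 0.302).

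**Figure D1:**
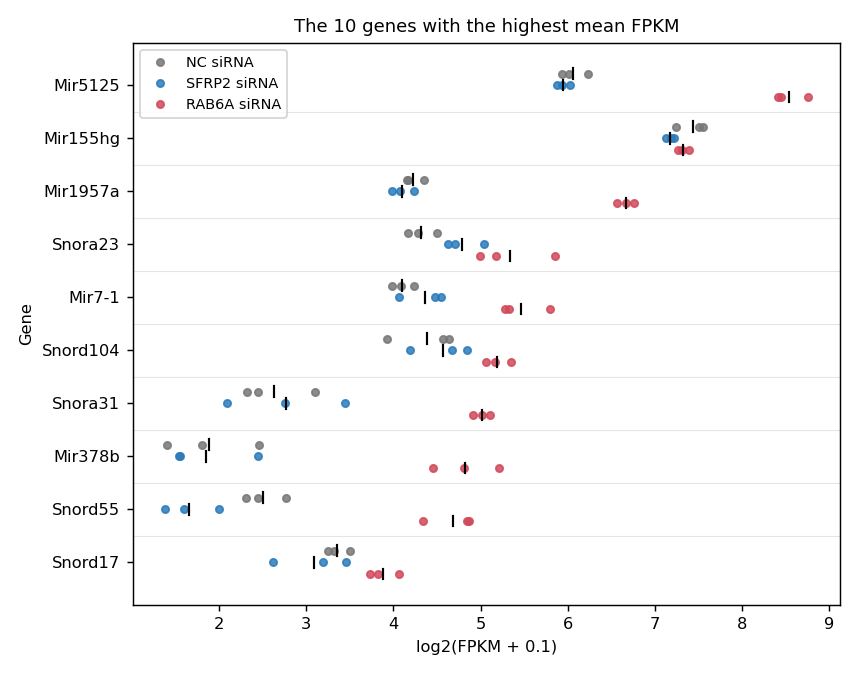
Level of the 10 microRNA, snoRNA and host transcript genes of highest mean FPKM, as log2(FPKM + 0.1) on the horizontal axis. Points are libraries, coloured by group, and black ticks are group means (n = 3). In Mir5125 and Mir1957a the RAB6A siRNA libraries lay well above the other 6, whereas in Mir155hg the RAB6A siRNA and NC siRNA groups overlapped.

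To compare RAB6A siRNA with NC siRNA, limma was run on log2(FPKM + 0.1) over all 12712 genes with a mean of at least 0.5 FPKM in the 6 libraries. A gene was called (DEG) when its adjusted p was below 0.05 and its log2 fold change was above 1 or below -1. Of 139 small RNA genes tested, 58 were higher and 14 lower with RAB6A siRNA. Over all genes tested, 30.1% were called, 17.3% higher and 12.8% lower, against 41.7% and 10.1% of the small RNA genes. At an adjusted p below 0.05 alone, 61 small RNA genes (43.9%) were higher and 16 (11.5%) lower, the latter against 36.5% of all genes. By unadjusted p under 0.05, 58.3% of the small RNA genes differed, against 76.1% of all genes. The median log2 fold change was 1.02 for the small RNA genes and 0.03 for all genes. Without the second NC siRNA library, 9 small RNA genes were lower. In 60 small RNA genes (43.2%) the RAB6A siRNA values all lay above those of NC siRNA and in 16 (11.5%) all below. Over all genes these shares were 39.2% and 38.2%.

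These counts depend in part on how the genes were chosen, since a gene with little signal in the other groups could pass the limit through the RAB6A siRNA libraries alone. With RAB6A siRNA 126 of the 141 genes had a group mean of at least 0.5 FPKM, with NC siRNA 106 and with SFRP2 siRNA 104, and 24 reached it only with RAB6A siRNA. Of the 58 called higher, 31 reached it with NC siRNA. The choice was therefore repeated on the SFRP2 siRNA libraries, which are outside this comparison. Of the 113 microRNA and snoRNA symbols that reached 0.5 FPKM there, 35 (31%) were higher and 15 (13.3%) lower with RAB6A siRNA than with NC siRNA. Of the 12090 genes chosen in the same way, 12.3% were higher and 14.5% lower. The medians were 0.63 and -0.07. By groups that did not overlap there was no excess of higher genes: 39 of the 113 (34.5%) lay above NC siRNA in all libraries against 34.7% of all genes so chosen, and 17 (15%) lay below against 41.6%.

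Fold changes were then counted by the position of the gene, beside 17.3% called higher and 12.8% lower over all genes tested. Inside introns on the same strand, 48 of 101 genes tested were called higher and 8 lower, with a median log2 fold change of 1.61. Inside introns on the opposite strand, 7 of 13 were higher and 1 lower (median 1.99). Of the 8 genes that overlapped an exon, 3 were higher and 0 lower (median 0.64), with 0 lower also at an unadjusted p under 0.05 and with voom. Of the 13 genes that overlapped no other gene, 0 were higher by limma and 3 lower (median -0.81), with 1 higher at an unadjusted p under 0.05 and 0 with voom. The median was above 0 inside introns (0.90 to 2.01) and below 0 away from genes (-1.09 to -0.40) under every alternative setting fixed for these counts. When genes with 0 reads in a whole group were set at their bound, these medians did not change. Chosen on the SFRP2 siRNA libraries, the counts were 29 higher and 9 lower of 79 inside introns (median 1.02), 4 higher and 1 lower of 9 inside introns on the opposite strand (median 1.17), 2 higher and 0 lower of 6 over an exon (median 0.20), and 0 higher and 3 lower of 15 away from genes (median -1.21). Over all genes so chosen, 12.3% were higher and 14.5% lower.

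**Figure D2:**
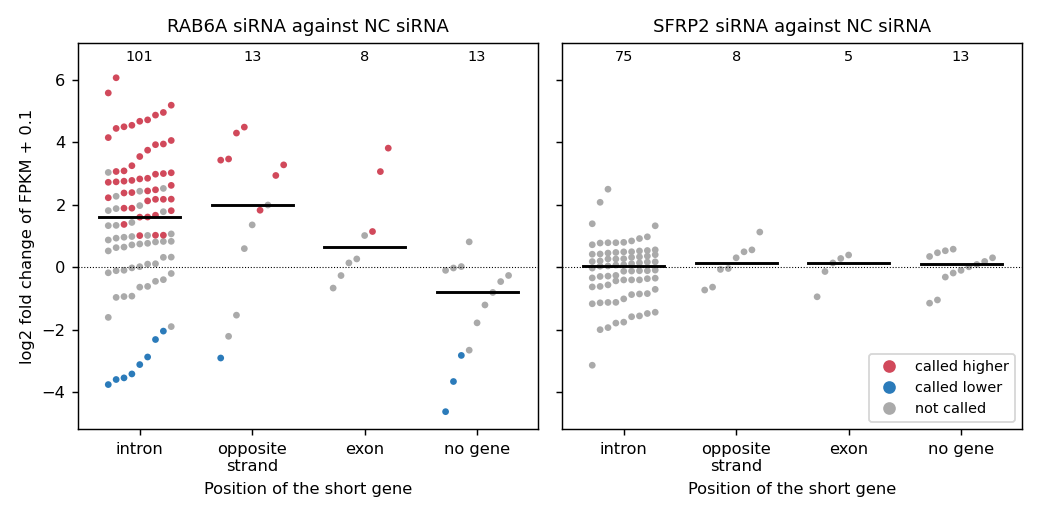
Log2 fold change of FPKM + 0.1 for each short gene, by its position: in an intron on the same strand, in an intron on the opposite strand, over an exon on the same strand, or over no other gene. Red and blue points passed the adjusted p and fold limits, black lines are medians and the numbers at the top count the genes. With RAB6A siRNA the medians were 1.61, 1.99, 0.64 and -0.81, and with SFRP2 siRNA no point was called.

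The host genes were compared with the small RNA genes inside them. For the 99 intronic genes whose host was also tested, the median was 1.61 for the small RNA gene and -0.11 for the host, and in 78 of the 99 the small RNA gene had the higher log2 fold change. Of the 47 that were called higher, the host was called higher in 4, called lower in 2 and not called in 41. Of the 8 called lower, the host was called lower in 4 and had a lower mean in 7. Chosen on the SFRP2 siRNA libraries, 77 intronic genes had a tested host, with medians of 1.02 for the small RNA gene and -0.10 for the host, and the small RNA gene had the higher log2 fold change in 53 of the 77. Of the 29 of them that were called higher, the host was called higher in 3, called lower in 1 and not called in 25. Across the 99 genes, Pearson's r between both log2 fold changes was 0.18 and Spearman's rho 0.17, as a description only, since genes that share a host and libraries are not independent. Comparisons by intron length and with a gene on the opposite strand were made only on genes that could pass the limit through RAB6A siRNA. Small RNA genes in introns under 1000 bases had a median of 1.35 (23 of 50 called higher) and those in longer introns 1.88 (24 of 49). For the 12 genes on the opposite strand of a tested gene, the medians were 2.47 for the small RNA gene and 0.17 for the gene around it. Whether counting used the strand was not given in the sources used here, so that reads from either strand of these genes cannot be told apart.

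**Figure D3:**
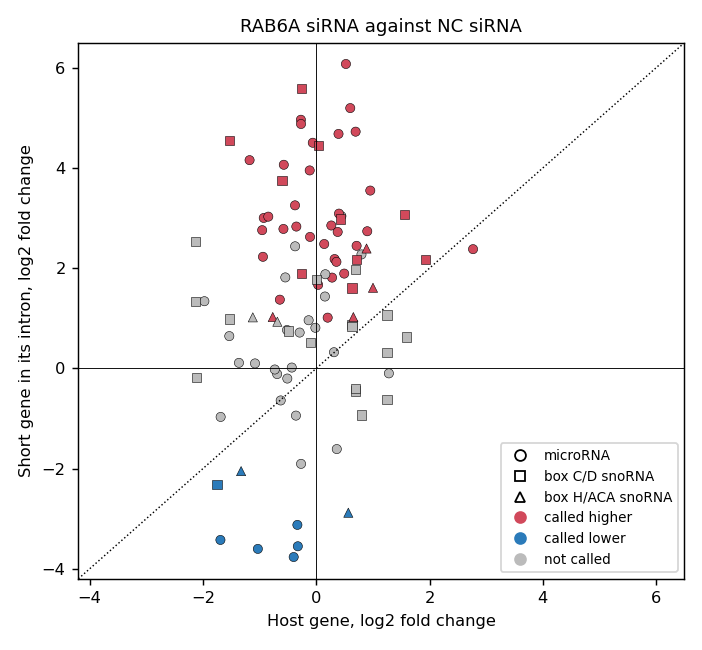
Log2 fold change, RAB6A siRNA against NC siRNA, of 99 intronic small RNA genes (vertical axis) and of their host genes (horizontal axis). The dotted line marks equal values. Of the 99 points, 78 lay above the line, and the 47 called higher (red) were mostly at host values between -1 and 1.

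Other gene types of the annotation were counted for comparison, without the microRNA and snoRNA symbols above and with the genes chosen on the SFRP2 siRNA libraries. Of 37 sense intronic RNA genes, 20 (54.1%) were called higher with RAB6A siRNA and 3 lower (median log2 fold change 1.19). Of 137 genes of the TEC type, which await experimental evidence, 56 (40.9%) were higher and 25 (18.2%) lower (median 0.46). Of 46 snRNA genes, 17 (36.96%) were higher and 3 lower (median 0.66), and of 62 snoRNA genes with other names 23 (37.1%) were higher and 7 lower (median 0.74). The shares were smaller for 230 antisense genes (26.96% higher and 16.96% lower), 800 processed pseudogenes (23.25% and 11.75%) and 221 lincRNA genes (18.1% and 25.3%). Of 10008 protein-coding genes, 9.31% were higher and 14.5% lower (median -0.10). With the filter over the 6 libraries compared, which a gene can pass through RAB6A siRNA alone, the shares called higher were 79.6% of 49 sense intronic, 69.8% of 252 TEC, 66.7% of 57 snRNA, 51.4% of 327 antisense, 34.7% of 910 processed pseudogene and 10.8% of 10150 protein-coding genes. The part of unspliced RNA in the reads at the small RNA genes was not tested. Of every 1000000 reads, all short genes together took 32.6 to 37.5 with NC siRNA, 35.8 to 38.9 with SFRP2 siRNA and 94.5 to 110 with RAB6A siRNA. Without Mir5125, the intronic ones took 19.3 to 21.8, 21.2 to 23.0 and 52.1 to 58.5 of every 1000000 reads. Both sums were over genes chosen with the RAB6A siRNA libraries included, and 24 of the 141 genes reached 0.5 FPKM only with RAB6A siRNA. The sums therefore depend in part on how the genes were chosen.

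The 10 genes with the largest rise among the called genes with at least 10 reads per library and no overlap between groups were Mir1938, Snord71, Mir669n, Snord98, Mir199a-1, Mir6395, Mir3473g, Mir1898, Mir7669 and Mir378b. All 10 were also called higher against SFRP2 siRNA, by 2.05 to 6.26 on the log2 scale, with the same RAB6A siRNA libraries in both comparisons. Mir1938, in an intron of Ifrd1, had 0, 0 and 0.470 FPKM with NC siRNA, 0, 0 and 0.288 with SFRP2 siRNA and 11.8, 13.5 and 10.7 with RAB6A siRNA. These were 2 reads in all with NC siRNA and 129 with RAB6A siRNA, a ratio of 79.2 after scaling to the totals (95% exact interval 21.5 to 661). It was the gene with the largest log2 fold change among the small RNA genes tested, while Ifrd1 differed by 0.52. Mir1938 was below 0.5 FPKM in every NC siRNA and SFRP2 siRNA library and was included through the RAB6A siRNA libraries alone. The direction of its difference was therefore fixed by the choice of genes.

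Both box C/D genes in this set lay in introns of genes that were not called. Snord98, in an intron of Ccar1 (chr10:62765576-62765640), had 2.22, 1.31 and 1.45 FPKM with NC siRNA, 5.69, 2.37 and 0.886 with SFRP2 siRNA and 23.3, 19.5 and 26.8 with RAB6A siRNA. Its log2 fold change was 3.75 ± 0.20 (adjusted p = 3.92e-06), against -0.60 for Ccar1. Snord71, in an intron of Ap1g1, had 1.70, 0 and 0.553 FPKM with NC siRNA and 15.9, 8.71 and 8.62 with RAB6A siRNA (4.45 ± 0.93, adjusted p = 0.00322), against 0.04 for Ap1g1.

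Mir199a-1 and Mir378b lay in introns on the strand opposite to Dnm2 and Msi2. Mir199a-1 (chr9:21496495-21496564) had 2.40, 1.21 and 2.35 FPKM with NC siRNA, 4.23, 3.67 and 0.822 with SFRP2 siRNA and 24.8, 21.5 and 18.8 with RAB6A siRNA. Mir378b had 3.40, 2.54 and 5.37 FPKM with NC siRNA, 5.36, 2.80 and 2.82 with SFRP2 siRNA and 37.1, 21.8 and 27.9 with RAB6A siRNA. They rose by 3.43 ± 0.25 and 2.94 ± 0.28 (adjusted p = 1.37e-05 and 5.54e-05), and Dnm2 and Msi2 differed by 0.92 and 0.98. Mir669n and Mir6395 were also on the opposite strand, of Slc30a7 and Saraf, and rose by 4.30 ± 1.09 and 3.28 ± 0.53.

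The other 3 lay in introns on the same strand of genes with lower values in RAB6A siRNA. Mir1898, in Zfr, had 1.74, 1.28 and 0.850 FPKM with NC siRNA and 14.9, 10.5 and 8.09 with RAB6A siRNA. Mir7669, in Ubap2l, had 1.66, 1.10 and 3.65 FPKM with NC siRNA and 17.6, 12.3 and 18.4 with RAB6A siRNA. Mir3473g, in Sppl2a, had 1.41, 0.312 and 0.173 FPKM with NC siRNA and 6.47, 5.64 and 3.82 with RAB6A siRNA. The log2 fold changes were 3.03, 3.00 and 3.25 for these genes and -0.85, -0.93 and -0.38 for their hosts.

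**Figure D4:**
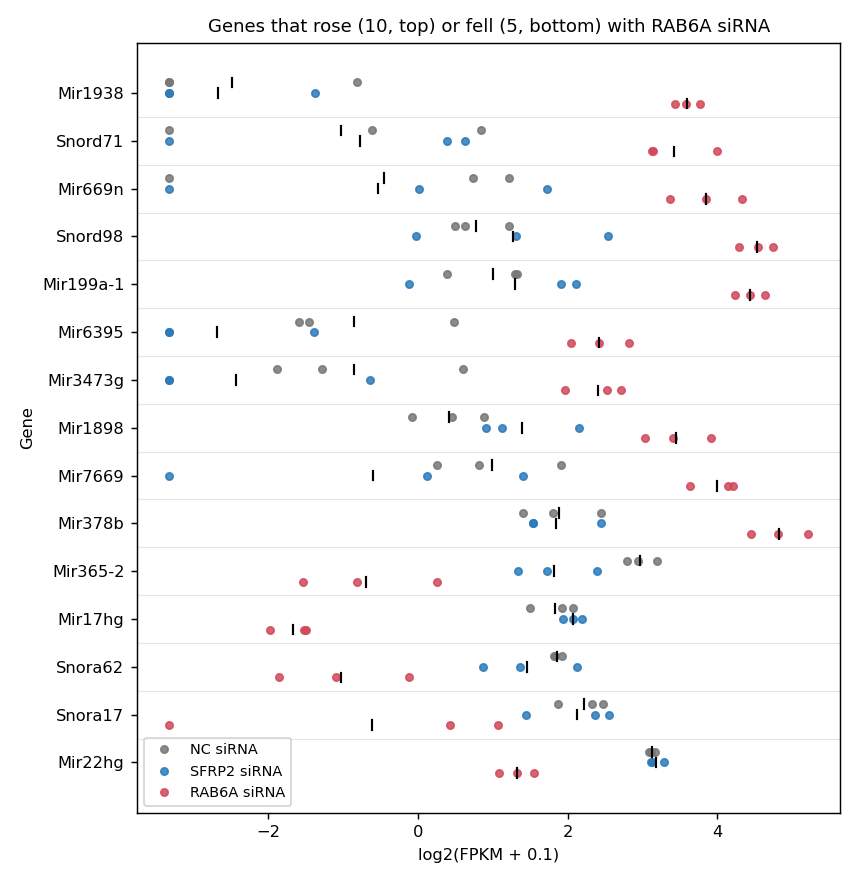
Level of the 10 genes with the largest rise and the 5 genes that fell with RAB6A siRNA, as log2(FPKM + 0.1). Points are libraries, black ticks are group means (n = 3), and a value of 0 FPKM lies at the left edge. The RAB6A siRNA libraries lay to the right of all NC siRNA libraries in the upper 10 genes and to the left in the lower 5.

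The same limits were passed by 5 genes that fell, 2 of which were host transcripts. Against SFRP2 siRNA, 4 of the 5 were also called lower, and Snora17 was not (log2 fold change -2.73, adjusted p = 0.0518). Mir17hg, the host transcript of the Mir17 cluster, had 4.10, 3.69 and 2.73 FPKM with NC siRNA, 4.47, 4.10 and 3.74 with SFRP2 siRNA and 0.156, 0.254 and 0.250 with RAB6A siRNA. Mir22hg, the host transcript of miR-22, had 8.89, 8.38 and 8.56 FPKM with NC siRNA, 8.64, 8.54 and 9.68 with SFRP2 siRNA and 2.40, 2.02 and 2.84 with RAB6A siRNA. They fell by 3.49 ± 0.22 and 1.80 ± 0.12 on the log2 scale (adjusted p = 7.54e-06 and 9.49e-06). Both are long, with 410 to 760 reads per library in the NC siRNA group. Mir142hg, the remaining host transcript, had 10.7 ± 2.25 (SD, n = 3) FPKM with NC siRNA and was not called with RAB6A siRNA (log2 fold change -0.41, adjusted p = 0.0299).

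Mir365-2, which overlaps no other gene (chr11:79726400-79726511), had 9.01, 6.82 and 7.56 FPKM with NC siRNA, 2.42, 3.21 and 5.14 with SFRP2 siRNA and 0.246, 0.472 and 1.09 with RAB6A siRNA. The 3 groups did not overlap. The fall with RAB6A siRNA was 3.67 ± 0.40 on the log2 scale (adjusted p = 1.06e-04). Snora62, in an intron of the ribosomal protein gene Rpsa (chr9:120130415-120130563), had 3.71, 3.42 and 3.47 FPKM with NC siRNA, 2.48, 1.73 and 4.25 with SFRP2 siRNA and 0.369, 0.177 and 0.819 with RAB6A siRNA. It fell by 2.88 ± 0.39 (adjusted p = 3.21e-04), while Rpsa differed in the other direction by 0.57. Snora17 had 4.92, 5.46 and 3.56 FPKM with NC siRNA, 5.79, 5.07 and 2.62 with SFRP2 siRNA and 1.25, 2.00 and 0 with RAB6A siRNA. Its fall of 2.83 ± 1.03 (adjusted p = 0.0372) was no longer called when any 1 of the 3 NC siRNA libraries was left out (adjusted p = 0.0665 to 0.0922), with log2 fold changes of -2.78, -2.71 and -3.01.

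In all, 6 genes of the macrophage microRNA list were detected. With RAB6A siRNA against NC siRNA, 0 of them were called higher and 2 lower, against 17.3% and 12.8% of all genes. Mir221 and Mir222, neighbours on chromosome X that share a seed, were the highest. Mir221 had 9.87, 7.14 and 7.68 FPKM with NC siRNA, 10.6, 13.3 and 7.88 with SFRP2 siRNA and 4.92, 9.74 and 6.43 with RAB6A siRNA. Mir222 had 10.95, 8.86 and 5.96 FPKM with NC siRNA, 13.4, 4.88 and 10.6 with SFRP2 siRNA and 5.57, 2.68 and 6.96 with RAB6A siRNA. The groups overlapped in both (adjusted p = 0.339 and 0.0736), although Mir222 was called lower without the third NC or the third RAB6A siRNA library (-1.05 and -1.09).

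Mir29a, of the miR-29 family that targets collagen mRNAs, had 3.28, 1.93 and 2.14 FPKM with NC siRNA, 1.96, 2.63 and 1.31 with SFRP2 siRNA and 0 in all 3 RAB6A siRNA libraries. These were 28 reads with NC siRNA and none with RAB6A siRNA, at least 7.60-fold lower when 3 reads are allowed over the group (limma adjusted p = 1.004e-05). Identical values of 0 show no spread in the RAB6A siRNA group, so that this p does not cover its counting error. Mir142b, on the opposite strand inside Mir142hg, had 5, 3 and 9 reads with NC siRNA and 1, 0 and 0 with RAB6A siRNA, a ratio of 13.8 (95% exact interval 2.17 to 579; adjusted p = 0.00388). Mir146, the gene of miR-146a, which restrains NF-κB signalling, had 9, 3 and 3 reads with NC siRNA, 11, 1 and 12 with SFRP2 siRNA and 0, 4 and 0 with RAB6A siRNA (adjusted p = 0.0600). Without the second RAB6A siRNA library, its adjusted p was 8.05e-04. Mir26b had 0, 2 and 8 reads with NC siRNA, 0 with SFRP2 siRNA and 8, 6 and 0 with RAB6A siRNA, which gives no direction.

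Several genes at 0 reads in all NC siRNA libraries were called higher. The most deeply read was Snord61, in an intron of Rbmx, with 37 reads over the RAB6A siRNA libraries, at least 15.1-fold higher. In the other direction, Mir421, in the non-coding gene Ftx, had 14 reads with NC siRNA and 0 with RAB6A siRNA, at least 3.80-fold lower. Snord61 and Mir421 were chosen after their values were seen. A gene at 0 reads in a whole group entered this test through the other group alone, so that its direction was fixed beforehand.

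The 4 core proteins of box C/D particles and the 4 of box H/ACA particles were all lower with RAB6A siRNA at an adjusted p under 0.05, against 36.5% of all genes, and 5 of the 8 passed the fold limit as well, as did 12.8% of all genes. Nop58 had 23.6 ± 1.70 (SD, n = 3) FPKM with NC siRNA, 25.96 ± 1.199 with SFRP2 siRNA and 5.30 ± 0.40 with RAB6A siRNA. Dkc1, the pseudouridine synthase, had 45.5 ± 2.58, 45.0 ± 0.35 and 5.02 ± 0.86 FPKM in the same order. Their log2 fold changes against NC were -2.13 and -3.17 (adjusted p = 1.49e-06 and 1.34e-06). Nop56 and Snu13 and the H/ACA protein Gar1 were also called lower, by -1.75, -1.04 and -1.87, while the methyltransferase Fbl, Nhp2 and Nop10 differed by -0.98, -0.60 and -0.48.

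Of 12 factors for the assembly or trimming of snoRNA particles, 5 were called lower (Naf1, Shq1, Znhit6, Ruvbl1 and Nolc1) and 1 higher (Nufip1, by 1.05), against 12.8% and 17.3% of all genes. By class of guide, of the 32 box C/D genes, 11 were called higher and 1 lower (median 1.02), and of the 11 box H/ACA genes 4 were higher and 3 lower (median 0.93). These counts by class were made only on genes that could pass the limit through RAB6A siRNA, so that they depend in part on the choice of genes.

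**Figure D5:**
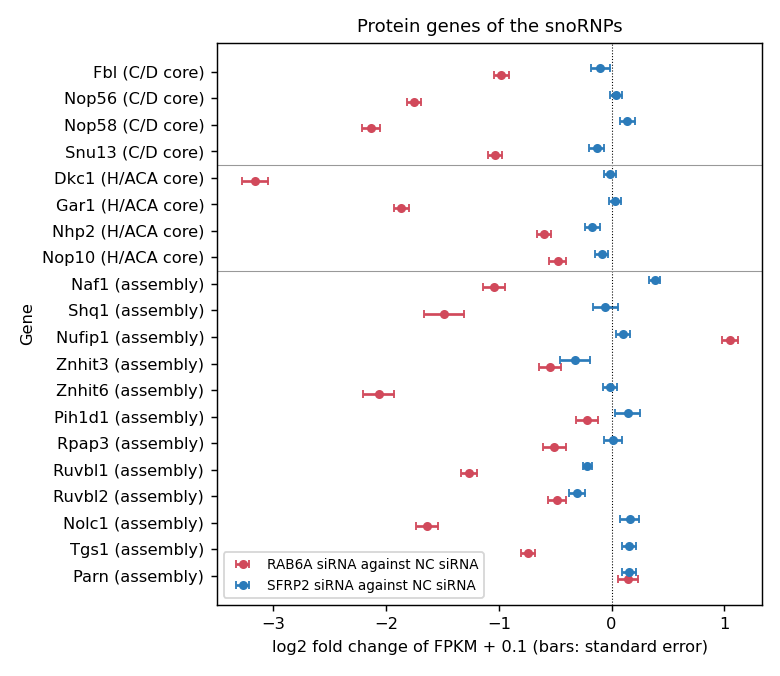
Log2 fold change of FPKM + 0.1 against NC siRNA for the core proteins and assembly factors of snoRNA particles, with standard errors (n = 3 libraries per group). The 8 core proteins lay between -3.17 and -0.48 with RAB6A siRNA and between -0.17 and 0.14 with SFRP2 siRNA.

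In the microRNA pathway, 23 of 26 listed symbols were measured (the other 3 are older names of measured genes), of which 3 were called higher and 5 lower with RAB6A siRNA, against 17.3% and 12.8% of all genes. Drosha, the nuclease of the first cut, had 25.5 ± 0.88 (SD, n = 3) FPKM with NC siRNA and 11.4 ± 1.08 with RAB6A siRNA, a log2 fold change of -1.16 (adjusted p = 9.94e-06). Its partner Dgcr8 had 4.24 ± 0.26 and 0.943 ± 0.19 FPKM (-2.07, adjusted p = 1.17e-05), and the export receptor Xpo5 had 17.7 ± 0.11 and 6.00 ± 0.35 FPKM (-1.55, adjusted p = 1.67e-06). Srrt and Ran were also lower (-1.53 and -1.11). The higher ones were Ago3, Ago4 and the Dicer partner gene Prkra (1.48, 1.34 and 1.31). Dicer1 differed by -0.74 and Ago2 by 0.31, below the fold that was called. Less RNA per cell and fewer cells that express a gene cannot be told apart in these bulk libraries.

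In the comparison of SFRP2 siRNA with NC siRNA, 105 small RNA genes were tested and 0 were called by limma, as were 0% of all 12017 genes tested. This differs from the paper, which reports genes changed in both directions by SFRP2 siRNA in this cell line. It used a count model with the same limits, which was not run here. At an unadjusted p under 0.05 there were 11 small RNA genes (10.5%), 4 higher and 7 lower, against 18.5% of all genes. This count moved with single libraries: it was 21 of 108 (19.4%, as for all genes) without the third SFRP2 siRNA library, and 19 of 105 (18.1%) without the first SFRP2 siRNA or the first NC siRNA library, against 18.1% and 16.3% of all genes. With voom on the recovered reads, 0 were called and 7 had an unadjusted p under 0.05. Of the 33 with a mean of at least 10 reads, 8 (24.2%) had such a p by limma, against 16.7% of all genes so chosen. The median log2 fold change was 0.04. The SFRP2 siRNA values all lay above those of NC siRNA in 4 small RNA genes (3.81%) and below in 7 (6.67%). Over all genes these shares were 10.9% and 13.9%. The smallest adjusted p of a small RNA gene was 0.152.

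By unadjusted p, the 3 higher genes with at least 10 reads per library were Mir703, Snora23 and Mir763. Mir703 had 1.32, 1.56 and 1.30 FPKM with NC siRNA and 2.26, 4.72 and 2.91 with SFRP2 siRNA (log2 fold change 1.13 ± 0.25, adjusted p = 0.168). Snora23 had 24.7, 32.7 and 25.97 FPKM with SFRP2 siRNA, all above its NC siRNA values (0.47 ± 0.13, adjusted p = 0.178). Mir763, in an intron of Hmga2, had 0.801, 0.884 and 1.37 FPKM with NC siRNA and 1.03, 2.79 and 6.24 with SFRP2 siRNA, which overlapped (1.33 ± 0.57, adjusted p = 0.277).

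The 3 lower genes were Snord55, Mir365-2 and Mir155hg, whose values are given above and did not overlap between these groups. The log2 fold changes were -0.85 ± 0.18 for Snord55, -1.15 ± 0.25 for Mir365-2 and -0.26 ± 0.08 for Mir155hg (adjusted p = 0.167, 0.168 and 0.206). None of the 6 passed the adjusted limit, which does not show that their levels were the same. The snoRNA particle and microRNA pathway lists had 0 called genes in this comparison, and the 20 snoRNA particle genes had a smallest adjusted p of 0.140 (Naf1).

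Between RAB6A siRNA and SFRP2 siRNA, 135 small RNA genes were tested, of which 54 (40%) were called higher and 10 (7.41%) lower with RAB6A siRNA. Over all 12764 genes tested 31.1% were called, 17.8% higher and 13.3% lower. Inside introns on the same strand 46 of 98 were higher and 4 lower (median 1.66), and of the 13 genes away from other genes 0 were higher and 2 lower (median -0.90). Chosen on the NC siRNA libraries, which are outside this comparison, 32 of 115 symbols (27.8%) were higher and 12 (10.4%) lower, against 12.7% and 15% of all genes so chosen, with a median of 0.63 in place of 1.29. Inside introns these were 27 higher and 5 lower of 82 (median 1.14). This comparison shares the RAB6A siRNA libraries with that against NC siRNA, so that it is no independent repeat of it. Without the first RAB6A siRNA library, 43 were higher and 7 lower.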

How the data were processed

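Per the labels, paired-end mRNA libraries were made from 9 samples of RAW264.7 cells. The values deposited by the authors are FPKM of each gene in each library, under Ensembl identifiers without names. The submitters' processing notes name HISAT2, featureCounts and Subread. Versions, genome build, annotation and strand setting were not given in the sources used here. Of 28137 identifiers, 604 had no name in GENCODE M21 (GRCm38), and the coordinates printed are those of M21.

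Reads were recovered as FPKM times M21 exon length divided by the step of each library, and were whole within 0.03 for all 9 libraries in 98.4% of named genes and in all 141 genes described. They state depth and enter voom and the filter on reads. Of values between 1 and 20 reads, 71.2% were even over all named genes and 50.1% in the short genes. PCR copies were not removed.

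Differences were tested with limma 3.58.1 in R 4.3.3 (lmFit, eBayes with an intensity trend) on log2(FPKM + 0.1). Fold changes of low genes therefore depend on the added 0.1. They can be understated, or overstated where single libraries had no reads. Benjamini-Hochberg adjustment was over all genes with a mean of at least 0.5 FPKM in the 6 libraries compared. The paper's methods name a count model, and the deposited unit is FPKM. The steps were tested on simulated data. A host gene is the gene on the same strand with the highest mean FPKM that holds the small RNA gene.

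Genes were named by these rules: the 10 highest means over 9 libraries, the 10 largest rises and falls among called genes without overlap and with a mean of at least 10 reads, the 3 smallest p-values in each direction where none was called, the detected genes of the macrophage microRNA list, and the hosts of all these. The host of 1 of these genes is not reported here. The genes, lists and tests were chosen with earlier results of these data known. All else was computed in Python 3.11.15 (numpy 2.4.6, scipy 1.17.1, pandas 2.3.3).

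Alternatives were pseudocounts of 1 and 0.01, no filter, a mean of at least 1 FPKM, a mean of at least 10 reads, median-of-ratios scaling, quantile normalization, voom, a joint fit of all 9 libraries, a block for the replicate number, eBayes with no trend, and each library left out. The choice of genes on the group outside a comparison was added after seeing the data.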

Additional observations from a re-analysis of the deposited data

How the results depend on the processing

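For RAB6A siRNA against NC siRNA, the count of small RNA genes called stayed within 1.5 times of 72 under most alternatives. With a mean of at least 10 reads, 28 of the 45 genes tested were called, 23 higher and 5 lower, since fewer genes were tested. With a mean of at least 1 FPKM, 8 were lower, also over fewer genes. Chosen on the group outside the comparison, 35 were higher against NC siRNA and 32 against SFRP2 siRNA. Against SFRP2 siRNA with a mean of at least 10 reads, 26 were called, 23 higher and 3 lower. Leaving out each library gave 63 to 75 called against NC siRNA (49 to 61 higher, 9 to 18 lower) and 50 to 69 against SFRP2 siRNA (43 to 56 higher, 7 to 14 lower). For SFRP2 siRNA against NC siRNA, the count was 0 under every alternative run.

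Same-numbered libraries of different groups did not deviate together more than others (correlations of -0.0847 to 0.0477, against -0.116 to 0.0815 for libraries with different numbers). Pairing by number was therefore not seen, though so few libraries cannot show that they were unpaired. With the replicate number as a block, 81 small RNA genes were called against NC siRNA (67 higher and 14 lower), 76 in RAB6A siRNA against SFRP2 siRNA and 0 in SFRP2 siRNA against NC siRNA, where 21 of 105 had an unadjusted p under 0.05 in place of 11 (24.9% of all genes in place of 18.5%).

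Among single genes, Mir763 in RAB6A siRNA against NC siRNA was at 0.11 and changed sign with quantile normalization (-0.27) and ranged from -0.22 to 0.40 without single libraries. Mir26b, at 0.64, ranged from -0.54 to 2.15 without single libraries and was below 0 without the first NC or the first RAB6A siRNA library. Neither was called. Among called genes, Snora23 fell under the fold limit with a pseudocount of 1 (0.99) and with median-of-ratios scaling (0.98), as did Mir142b with a pseudocount of 1 (-0.95). Snora17 lost its call with a pseudocount of 0.01, without a filter and without a trend (log2 fold change -3.96, -2.83 and -2.83, adjusted p = 0.0881, 0.0832 and 0.0651). Mir146 was called lower with quantile normalization (adjusted p = 0.0446). The causes were not tested. Depth limits most of these genes, 70 of which had fewer than 5 reads per library.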
